A study of Zea mays with 24 samples.

Results

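Shoots were compared with roots of maize seedlings grown without zinc (–Zn), on 6 of the 24 Affymetrix maize arrays of the series. The 6 arrays were those titled as grown with iron and without zinc, 3 of shoot and 3 of root. All 17621 probe sets other than the 113 control probe sets of the manufacturer named AFFX were tested. Probe sets with names starting with RPTR, for reporter sequences, stayed among those tested. The plants were seedlings of the inbred line SKV-616, a quality protein maize, raised in nutrient solution in a phytotron and sampled 12 days after transplanting. In shoot –Zn and root –Zn, ZnSO4 was left out of the solution and Fe-EDTA was kept. The same tissues of plants given both metals, shoot +Fe+Zn and root +Fe+Zn, served to ask which tissue differences were not those of fully fed plants. Each group had 3 biological replicates by the labels, whole shoots and whole roots were used, and all groups were of 1 genotype. Such samples mix many cell types, so fewer cells of a type and less RNA per cell cannot be told apart.

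Zinc is a structural or catalytic metal of many plant enzymes and transcription factors, and grasses take it up through ZIP family transporters and as complexes with mugineic acid phytosiderophores, which are made from methionine through nicotianamine. Maize leaves fix carbon by the C4 pathway, in which phosphoenolpyruvate carboxylase of the mesophyll makes oxaloacetate, NADP-malate dehydrogenase reduces it to malate, and malate is decarboxylated beside Rubisco in the bundle sheath. Roots hold the dividing and elongating cells of the root tip, import sucrose from the shoot, and carry most of the uptake machinery for water and minerals.

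The deposited values are on the log2 scale and share a lowest value of 2.24, at which a transcript was not above background, so a difference against a tissue at that floor is understated. Between 24.3 and 24.4% of the probe sets lay at the floor on the shoot –Zn arrays, against 30.7 to 31.2% on the root –Zn arrays, and 2780 probe sets lay there on all 6. Replicates correlated at 0.989 to 0.994 in shoot –Zn and at 0.996 to 0.998 in root –Zn, and the median SD between replicates was 0.16 in shoot –Zn and 0.085 in root –Zn on the log2 scale. Shoot –Zn replicate 1 was the array farthest from the median of its group for 45.9% of 14841 probe sets above the floor, against 27.0 and 27.1% for the other shoot arrays.

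The leaf and root labels were checked against marker genes. The mean of 21 leaf marker probe sets (Rubisco, photosystem and C4 genes) lay at 9.47 to 9.69 on the shoot –Zn arrays and at 4.12 to 4.21 on the root –Zn arrays, and 16 of the 21 were higher in shoot. The mean of 4 root markers lay at 2.56 to 3.01 in shoot –Zn and 3.91 to 4.00 in root –Zn, so these few markers separated the tissues by much less. A mesophyll marker, carbonic anhydrase, a zinc enzyme that supplies bicarbonate to the C4 cycle, was at 10.84, 11.70 and 11.77 in shoot –Zn and at 6.58, 6.49 and 6.65 in root –Zn. The NADP-malic enzyme gene me3, a bundle sheath marker, was near the floor in shoot –Zn (2.24, 2.67 and 2.91) and at it in root –Zn, against 7.23, 7.42 and 7.27 in shoot +Fe+Zn. The labelled tissue thus held for the marker lists as a whole, although 1 of the 21 leaf probe sets was higher in root and 4 were not called. Of the bundle sheath markers, me3, which is outside the leaf list, was near the floor in both tissues. The Rubisco small subunit rbcs1, the other one, was higher in shoot, as given below.

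Some technical signals moved with tissue. The signal of the 3′ probe set of cyclophilin minus that of its middle probe set averaged 10.8 in shoot –Zn and 4.26 in root –Zn, and that of ubiquitin 7.64 and 4.99. That of Gapdh was 9.37 in both. The dap control spike, a bacterial transcript, averaged 6.0 in shoot –Zn and 9.19 in root –Zn, and of the 113 control probe sets 10 were higher in shoot –Zn and 12 in root –Zn by at least 2-fold without overlap. The part of these signals in the differences below was not tested.

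A probe set was called higher in a tissue at a Benjamini-Hochberg adjusted p under 0.05 in limma and a difference of at least 2-fold. By this rule 2830 of 17621 probe sets (16.1%) were higher in shoot –Zn than in root –Zn and 3606 (20.5%) were higher in root –Zn, together 36.5%. The 3 shoot and 3 root arrays did not overlap for 59.9% of all probe sets. The median difference of the called probe sets was 2.01 on the log2 scale for those higher in shoot and 2.07 for those higher in root. The shoot set had a longer tail, with 290 probe sets at least 32-fold higher in shoot and 214 at least 32-fold higher in root. Over all probe sets tested the median difference was 0.00. Only 1452 probe sets of the array carry 1 gene in its annotation, so the named genes stand for 252 of the probe sets higher in shoot (232 genes) and 400 of those higher in root (341 genes).

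**Figure D1:**
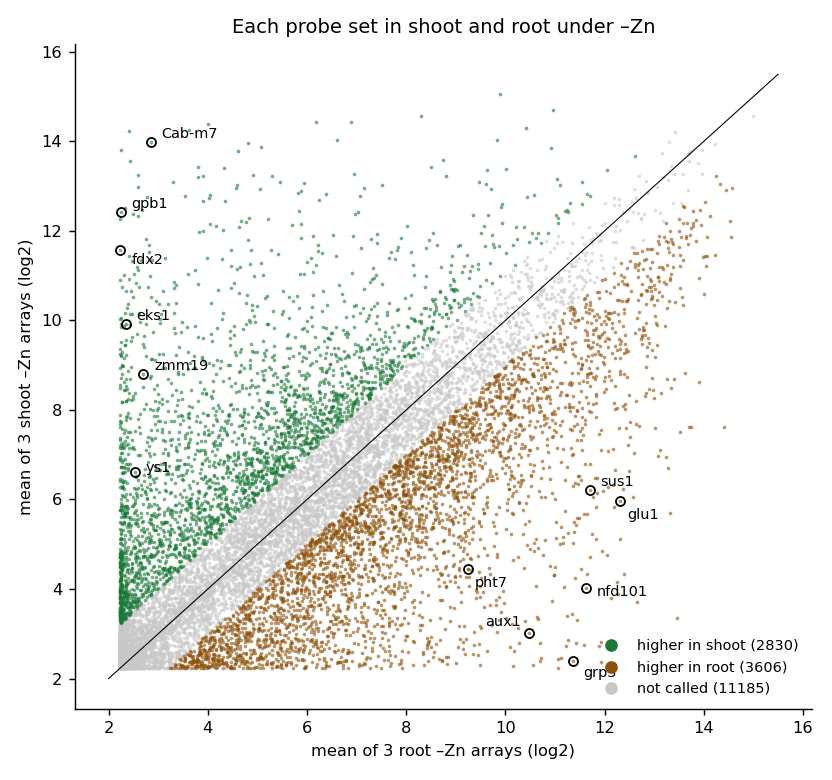
Mean deposited value (log2) of each of the 17621 probe sets on the 3 root –Zn arrays (x axis) and the 3 shoot –Zn arrays (y axis), coloured by call, with the line of equal values. The 2830 probe sets higher in shoot reach from the floor of the root axis to above 14, and the 3606 higher in root spread along the lower edge, with 12 genes of the text circled.

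Photosystem and antenna genes stood among the widest differences toward shoot, whereas ferredoxins and their reductases split by member. Cab-m7, a chlorophyll a/b-binding protein of the antenna, was at 14.03, 13.99 and 13.96 in shoot –Zn and at 2.86, 2.83 and 2.86 in root –Zn. The groups were separated by a difference of 11.15 (standard error 0.36, adjusted p = 1.97e-14), the largest of any annotated gene. L-FNRII, the leaf ferredoxin-NADP reductase that ends linear electron flow, was at 14.24, 14.23 and 14.26 in shoot –Zn and 3.72, 3.66 and 3.49 in root –Zn. The leaf ferredoxin gene fdx2 was at 11.67, 11.51 and 11.55 in shoot –Zn and at the floor of 2.24 on all 3 root –Zn arrays, a difference of 9.34 that is bounded by the floor. In the list of 8 ferredoxin and ferredoxin-NADP reductase probe sets, which does not hold L-FNRII, fdx2 was the only 1 higher in shoot, 4 were higher in root, from fdx3, FDX6 and fnr1, and the median was -0.81. Of 12 probe sets for photosystems and antennae, 10 were higher in shoot and none in root, against 16.1% and 20.5% of all probe sets. The list median was 7.55. Beside Cab-m7 the 10 included the minor antenna proteins lhcb6 (difference 9.79) and Lhcb5-2 (8.42) and the photosystem I subunit psan1 (9.23).

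Members of the photosystem list differed in how evenly the shoots held them. Lhcb5-2 averaged 13.02 ± 0.02 in shoot –Zn and 4.6 ± 0.04 in root –Zn (SD, n = 3 each). The photosystem I subunit psah1 was at 6.91, 5.46 and 4.96 in shoot –Zn and at 3.20, 3.37 and 3.21 in root –Zn, the smallest called difference of the list at 2.52 (standard error 0.36). OEE3, of the oxygen-evolving complex, was at 10.07, 10.84 and 10.69 in shoot –Zn and 2.65, 2.49 and 2.31 in root –Zn. Shoot –Zn replicate 1 was therefore the highest of the shoots for psah1 and the lowest for OEE3, with no overlap with the roots in either.

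Carbon fixation genes were higher in shoot for 6 of 10 probe sets (16.1% over all probe sets), with a median difference of 5.13. Phosphoenolpyruvate carboxylase of the C4 pathway, pep1, was at 12.57, 12.83 and 12.63 in shoot –Zn and at 4.01, 3.92 and 3.81 in root –Zn (difference 8.76, standard error 0.37). The Rubisco small subunit rbcs1 was at 13.22, 13.34 and 13.23 in shoot –Zn and 7.07, 6.89 and 6.88 in root –Zn, and Rubisco activase, rca1, at 8.86, 9.23 and 9.39 in shoot –Zn and 2.45, 2.24 and 2.24 in root –Zn. The differences were 6.31 and 6.85, and the arrays of the 2 tissues did not overlap for any of these 3 genes. Pyruvate phosphate dikinase, pdk1, which regenerates phosphoenolpyruvate, gave calls in both directions. One probe set was at 14.38, 14.77 and 14.53 in shoot –Zn and 8.50, 8.14 and 8.25 in root –Zn, and another was higher in root by 1.56. NADP-malate dehydrogenase, mdh6, was at 11.28, 12.05 and 12.10 in shoot –Zn and 2.67, 2.96 and 2.66 in root –Zn, a difference of 9.05 that was 9.32 without shoot –Zn replicate 1.

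Glyceraldehyde-3-phosphate dehydrogenase gave calls on both sides. The Calvin cycle subunit gpb1 was at 12.44, 12.42 and 12.43 in shoot –Zn and at 2.24 on every root –Zn array. The cytosolic, glycolytic gpc4 was at 3.20, 3.15 and 3.15 in shoot –Zn and 9.45, 9.58 and 9.46 in root –Zn (difference -6.33, standard error 0.40). On its brightest probe set the cytosolic gpc3 differed by -5.06, and gpc2 by -2.79. For GAPC, also a cytosolic form, 1 probe set was higher in root (difference -4.38) and another higher in shoot (3.44), so the cytosolic forms were not all on the root side. Opposite calls also occurred within other families. The sucrose-phosphate synthase sps1, of sucrose synthesis, was at 10.77, 10.72 and 10.49 in shoot –Zn and 2.56, 2.39 and 2.38 in root –Zn, whereas the sucrose synthase sus1, which cleaves sucrose in importing tissue, was at 6.33, 6.20 and 6.13 in shoot –Zn and 11.87, 12.04 and 11.18 in root –Zn. Of the 23 sucrose and starch probe sets, 7 were higher in shoot, 3 in root and 13 were not called, against 16.1% and 20.5% of all probe sets. The beta-glucosidases glu2 and glu1, which release benzoxazinoids from their glucosides, differed by 8.26 and -6.35.

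Pigment synthesis followed the shoot with smaller differences. Of 7 probe sets for chlorophyll, heme and carotenoid synthesis, 6 were higher in shoot and 1 was not called (median 1.88). The share higher in shoot over all probe sets was 16.1%. Phytoene desaturase, pds1, was at 8.42, 9.57 and 9.52 in shoot –Zn and 5.50, 5.55 and 5.84 in root –Zn. The beta-carotene hydroxylase crtRB1 differed by 3.45 and the magnesium chelatase subunit oy1 by 1.91. All 3 were also higher in shoot in the +Fe+Zn comparison.

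Lipid transfer proteins and a diterpene synthase were high in shoot and near the floor in root. PLTP, a lipid transfer protein, was at 12.01, 12.71 and 12.82 in shoot –Zn and 2.30, 2.36 and 2.31 in root –Zn, and plt2, of the same family, at 9.28, 10.40 and 10.43 in shoot –Zn and at the floor in root –Zn. Shoot –Zn replicate 1 was lowest for both, still far above every root array. Of 12 lipid transfer, wax and fatty acid probe sets, 7 were higher in shoot and 1 in root, the fatty acid elongase fae1 (difference -2.32). The shares over all probe sets were 16.1% higher in shoot and 20.5% higher in root. The ent-kaurene synthase eks1, of gibberellin synthesis, was at 9.80, 10.04 and 9.94 in shoot –Zn and 2.46, 2.27 and 2.31 in root –Zn. The thiamine synthesis gene thi1 differed by 9.98 and the catalase cat2 by 6.17. At the extreme, 48 probe sets lay at the floor on all 3 root –Zn arrays and at least 3 log2 units above it on all 3 shoot –Zn arrays, 9 of them annotated, and 14 showed the opposite.

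**Figure D2:**
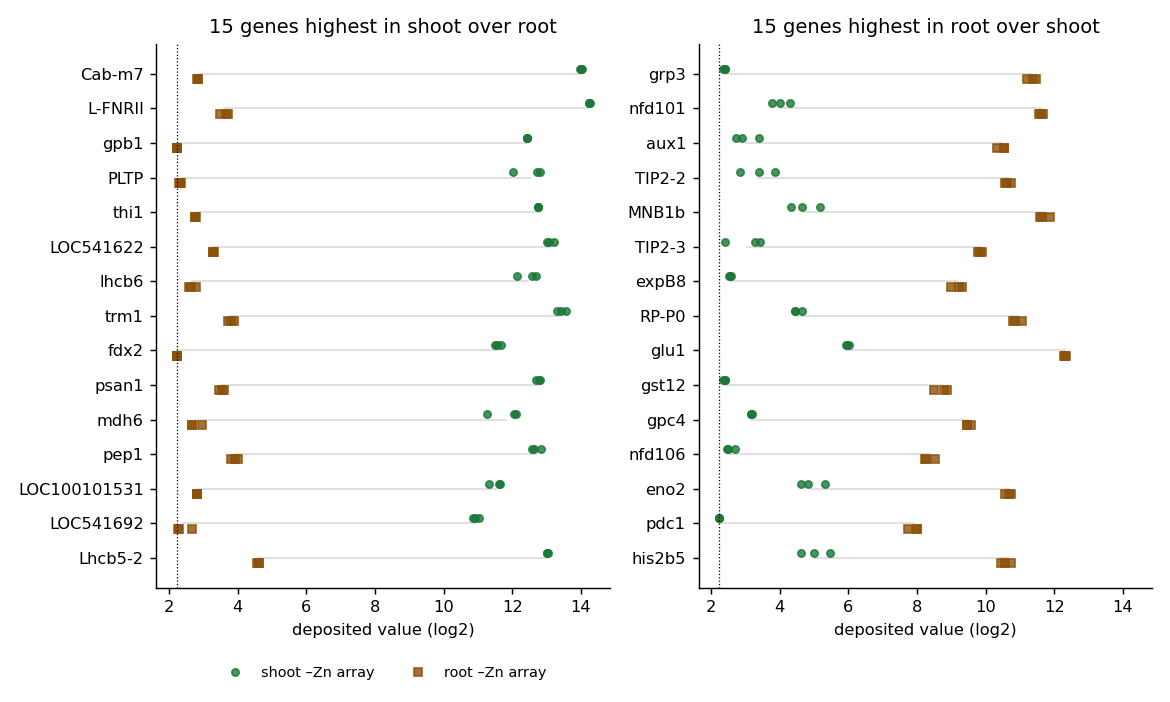
Deposited values (log2, x axis) of the 15 annotated genes with the largest called difference toward shoot (left) and toward root (right), with 3 shoot –Zn arrays as circles, 3 root –Zn arrays as squares and the floor of 2.24 dotted. The shoot leaders lie below 5 on every root array and higher than that on every shoot array. Genes with overlapping tissues were left out of both panels by the rule of choice.

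Among annotated genes the widest difference toward root was that of a cell wall protein, while a probe set with no annotated gene was higher in root by 10.12. The glycine-rich protein gene grp3 was at 2.42, 2.42 and 2.36 in shoot –Zn and 11.22, 11.39 and 11.46 in root –Zn, a difference of -8.96 (standard error 0.07, adjusted p = 4.69e-22). The beta-expansin expB8, a wall-loosening protein, was at 2.58, 2.56 and 2.53 in shoot –Zn and 9.32, 9.22 and 9.0 in root –Zn, and the alpha-expansin expA4 at 2.79, 2.86 and 2.79 in shoot –Zn and 7.38, 7.37 and 7.23 in root –Zn. Of 24 probe sets for wall proteins and wall-loosening enzymes, however, 7 were higher in root, 1 in shoot and 16 were not called, 9 of the 24 lying at the floor on all 6 arrays. Over all probe sets 20.5% were higher in root –Zn and 16.1% in shoot –Zn. The auxin influx carrier aux1 was at 2.74, 2.91 and 3.40 in shoot –Zn and 10.55, 10.53 and 10.32 in root –Zn (difference -7.45, standard error 0.35).

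Histone and replication probe sets were called toward root only. Of 14 histone and replication probe sets, 9 were higher in root, none in shoot, 5 were not called, and the median was -2.19. Over all probe sets 20.5% were higher in root and 16.1% in shoot. The histone gene his2b5 was at 5.47, 5.01 and 4.62 in shoot –Zn and 10.56, 10.73 and 10.46 in root –Zn, and the replication clamp pcna2 at 4.83, 4.75 and 4.71 in shoot –Zn and 9.60, 9.59 and 9.70 in root –Zn. MCM7, of the replicative helicase, was at 2.28 on all 3 shoot –Zn arrays and at 6.43, 6.26 and 6.67 in root –Zn. The high mobility group chromatin proteins nfd101, MNB1b and nfd106 differed by -7.60, -6.98 and -5.79, and all 3 were among the 15 widest differences of annotated genes toward root. Another MNB1b probe set, near the floor in both tissues, differed by -0.19 and was not called. Other chromatin genes lay on the shoot side, among them the Polycomb group genes mez2 (difference 2.24) and mez3 (1.53), whereas mez1 was higher in root (-1.62). These 3 were singled out after their values were seen.

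Ribosomal proteins were almost all on the root side. Of 26 cytosolic ribosomal protein probe sets, 22 were higher in root and 2 in shoot, with a median of -1.90, and the mean of the list was 8.91, 8.90 and 8.90 in shoot –Zn and 10.6, 10.6 and 10.7 in root –Zn. The acidic protein arpp2a-3 was at 8.81, 8.6 and 8.65 in shoot –Zn and 11.78, 11.85 and 11.79 in root –Zn. Against the list, rpl29 was at 12.02, 11.76 and 11.87 in shoot –Zn and 6.90, 6.84 and 7.02 in root –Zn. The list was as one-sided under +Fe+Zn, with 21 higher in root and 2 in shoot. Over all probe sets 20.5% were higher in root and 16.1% in shoot under –Zn, and 18.4% and 18.2% under +Fe+Zn.

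Glycolysis and fermentation were higher in root for 11 of 22 probe sets and higher in shoot for 3, with a median of -1.93. The shares over all probe sets were 20.5% and 16.1%. Pyruvate decarboxylase, pdc1, which commits pyruvate to ethanol, was at 2.24 on all 3 shoot –Zn arrays and at 7.73, 8.01 and 8.0 in root –Zn. Alcohol dehydrogenase, adh1, a zinc enzyme, was at 5.64, 5.68 and 5.71 in shoot –Zn and 10.11, 10.33 and 10.05 in root –Zn (difference -4.49). The enolase eno2 differed by -5.75. For the other enolase gene, eno1, the brightest probe set was at 13.19, 13.32 and 13.32 in shoot –Zn and 13.94, 13.93 and 14.02 in root –Zn, less than 2-fold apart, whereas another probe set of it was at 3.08, 3.52 and 3.36 in shoot –Zn and 9.78, 9.91 and 9.92 in root –Zn. The 2 probe sets of this gene therefore gave different sizes of the same direction.

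That pattern was seen for more genes. Among 222 genes with at least 2 probe sets, the brightest was not called while another was called higher in root for 18 genes and called higher in shoot for 1. The root-type ferredoxin gene fdx3 was at 13.19, 13.35 and 13.26 in shoot –Zn and 13.59, 13.58 and 13.57 in root –Zn on its brightest probe set, but at 4.26, 4.12 and 4.12 in shoot –Zn and 8.62, 8.94 and 8.72 in root –Zn on another. Of 63 genes with at least 2 called probe sets, 6 had calls in both directions. The 3′ minus middle gap given above was wider in shoots for cyclophilin and ubiquitin but not for Gapdh. Its part in these cases was not tested.

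More tubulin, actin and cellulose synthase probe sets were called higher in root than in shoot, beside 20.5% and 16.1% of all probe sets. Of 16 tubulin and actin probe sets, 9 were higher in root, 1 in shoot and 6 were not called (median -1.80). The exception, the beta-tubulin tub3, was at 9.88, 10.10 and 10.31 in shoot –Zn and 6.88, 6.85 and 7.04 in root –Zn, against 8.97, 9.27 and 9.24 in shoot –Zn and 12.13, 12.22 and 12.26 in root –Zn for tub5. Of 13 cellulose synthase probe sets, 6 were higher in root, 1 in shoot and 6 were not called (median -0.49). The secondary wall type cesa10 was at 4.83, 5.23 and 5.47 in shoot –Zn and 9.09, 9.11 and 9.08 in root –Zn, and CesA-7 was at 9.61, 9.79 and 10.15 in shoot –Zn and 7.69, 7.62 and 7.81 in root –Zn. Members of this family thus lay on both sides of the comparison.

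Aquaporins, the channels for water and small solutes, split by member. Of 36 probe sets, 12 were higher in root, 9 in shoot and 15 were not called, against 20.5% and 16.1% of all probe sets. The median of the list was -0.02. The tonoplast members TIP2-2 and TIP2-3 were root genes, at 3.87, 3.40 and 2.85 in shoot –Zn and 10.56, 10.73 and 10.63 in root –Zn for TIP2-2 (difference -7.27) and with a difference of -6.79 for TIP2-3. PIP2-6 of the plasma membrane was at 4.72 on all 3 shoot –Zn arrays and at 10.15, 10.06 and 9.30 in root –Zn. NIP2-2, of the group that holds the silicon channels, was at 11.80, 12.18 and 12.31 in shoot –Zn and 4.70, 4.56 and 4.64 in root –Zn (difference 7.46, standard error 0.17). It was the widest difference of the family toward shoot.

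Stress and defence lists had members in both tissues. Their counts stand beside 16.1% of all probe sets higher in shoot –Zn and 20.5% higher in root –Zn. Of 35 glutathione S-transferase probe sets, 10 were higher in root, led by gst12 (difference -6.34), and 6 in shoot, led by gst31 (3.40). Of 13 probe sets for defence proteins and protease inhibitors, 7 were higher in root and none in shoot. Of 14 peroxidase, catalase and superoxide dismutase probe sets, 5 were higher in root, among them pox1 at 2.5, 2.77 and 2.24 in shoot –Zn and 7.85, 8.02 and 7.45 in root –Zn, and 3 in shoot. The 12 heat shock probe sets gave 5 calls each way, with the small heat shock genes hsp18a, hsp18c and hsp18f higher in shoot by 7.39, 6.90 and 5.16 and hsp70-4 higher in root (difference -4.95). The phosphate transporter pht7 was at 4.24, 4.81 and 4.27 in shoot –Zn and 9.23, 9.26 and 9.23 in root –Zn. In nitrogen assimilation 3 of 11 probe sets were higher in each tissue, with the nitrate reductase NNR1 higher in shoot by 3.37 and the glutamate dehydrogenase gdh1 higher in root (difference -2.39).

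Hormone and regulator genes were read from several lists, beside 16.1% of all probe sets higher in shoot –Zn and 20.5% higher in root –Zn. Of 18 cytokinin probe sets, 5 were higher in shoot, including the cytokinin oxidases cko3 (difference 2.99) and cko2 (2.41), and 1 in root, the response regulator RR6, against 36.5% called over all probe sets. Of 35 homeobox and MADS box probe sets, 29 were not called. The MADS gene zmm19 was at 8.70, 8.81 and 8.89 in shoot –Zn and 2.60, 2.67 and 2.81 in root –Zn, and the homeobox gene ocl5, of a family expressed in the epidermis, at 7.10, 7.29 and 7.08 in shoot –Zn and 2.35, 2.51 and 2.35 in root –Zn. None of 10 flavonoid and anthocyanin probe sets was called, 4 of them lying at the floor on all 6 arrays. Of 6 terpene synthases 3 were higher in shoot and 1 in root, of 7 ethylene probe sets 2 in shoot and none in root, and of 6 lignin probe sets 1 in shoot and 2 in root, among them pal3 (difference -3.70).

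**Figure D3:**
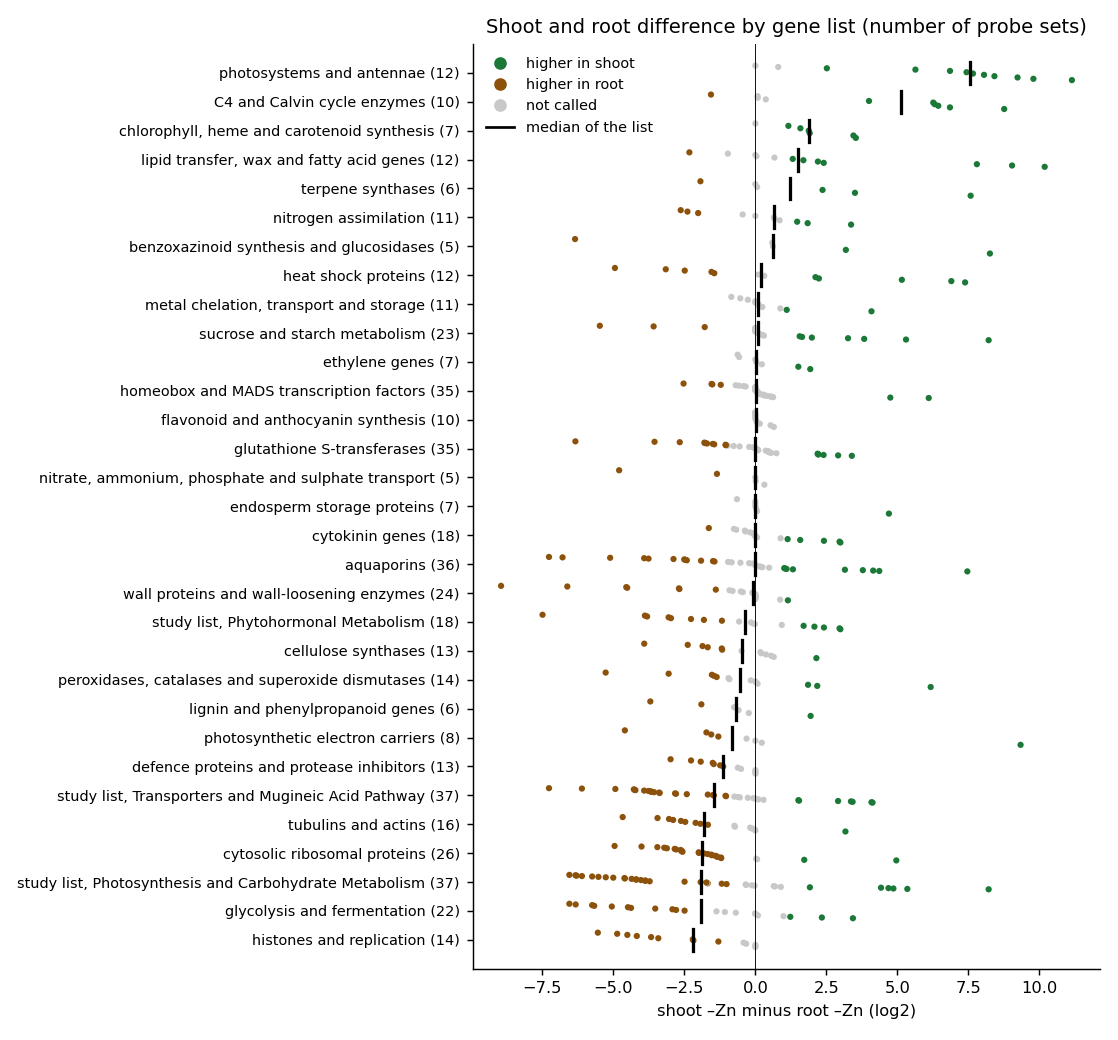
Difference of shoot –Zn minus root –Zn (log2, x axis) for each probe set of the gene lists with at least 5 members, coloured by call, with a bar at the median of each list. Photosystem probe sets have a median of 7.55 and histone and replication probe sets of -2.19, while aquaporins and glutathione S-transferases reach far to both sides of medians near 0.00.

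Genes of metal handling were read from the array annotation and from the study's own list of transporters and mugineic acid genes. The study chose that list for its response to the deficiencies on these samples, so it is not independent evidence of a direction. Of 11 annotated probe sets for metal chelation, transport and storage, 2 were higher in shoot, none in root, and the median was 0.10. The shares over all probe sets were 16.1% higher in shoot and 20.5% higher in root. Of the 37 probe sets on the study's list, 21 were higher in root and 7 in shoot, with a median of -1.46. Nicotianamine synthase 3, which makes the chelator nicotianamine, was at 13.45, 13.31 and 13.38 in shoot –Zn and 10.01, 10.05 and 9.98 in root –Zn. This shoot excess of 3.37 (standard error 0.14) stood beside root +Fe+Zn values of 8.98, 8.94 and 8.96, so root –Zn was higher than root +Fe+Zn by 1.05 (adjusted p = 2.73e-05). The iron-phytosiderophore transporter ys1 was at 6.55, 6.64 and 6.67 in shoot –Zn and 2.24, 2.30 and 3.06 in root –Zn, with 3.28, 4.16 and 3.40 in root +Fe+Zn. The nas1 probe sets of the annotation were not called between the tissues, and 1 of them was at 4.13, 4.00 and 3.75 in root –Zn and 7.0, 6.34 and 6.63 in root +Fe+Zn.

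Of the study's list, ZRT-IRT-like protein 5, zinc transporter 4 and NRAMP transporter 1 were not called between the tissues under –Zn, unlike 28 of its 37 probe sets. ZRT-IRT-like protein 5, of the ZIP family, was at 7.15, 8.37 and 8.17 in shoot –Zn and 7.90, 7.93 and 8.09 in root –Zn, and the shoot arrays enclosed the root arrays (difference -0.08, standard error 0.44, adjusted p = 1.0; 0.30 without shoot –Zn replicate 1). In root +Fe+Zn it was at 5.24, 5.69 and 5.57, so root –Zn was higher by 2.47 (adjusted p = 0.000457). Zinc transporter 4 was at 5.34, 6.75 and 6.60 in shoot –Zn and 6.68, 6.63 and 7.02 in root –Zn, with overlapping tissues, and at 6.12, 6.01 and 6.07 in root +Fe+Zn. NRAMP transporter 1, of a family of divalent metal carriers, was at 7.55, 7.04 and 7.33 in shoot –Zn and 7.96, 7.97 and 7.83 in root –Zn, a difference of -0.61 that did not reach 2-fold, and root –Zn was above root +Fe+Zn by 1.65 (adjusted p = 1.45e-05). The ferric-chelate reductase was at 3.96, 3.40 and 4.40 in shoot –Zn and 4.91, 4.84 and 5.1 in root –Zn (difference -1.03, standard error 0.24), a call that was lost without shoot –Zn replicate 2 (-0.77) or root –Zn replicate 3 (-0.96). The carbonic anhydrase probe set given above was at 3.90, 4.15 and 3.78 in root +Fe+Zn, so root –Zn was higher by 2.63 (adjusted p = 0.000157). Its difference of shoot minus root changed by -4.78 from +Fe+Zn, as labelled, to –Zn. The label of that shoot reference is in doubt, as set out below, and the change is not given with another reference. The brightest probe sets with the same cluster number, but no annotated gene, averaged 13.58 and 12.44 in shoot –Zn. Their changes of 0.06 and 0.11 were not called. A further probe set of the cluster was called in the same direction as the one given above.

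Enzymes of methionine use gave calls on both sides, and the V-type ATPase probe sets of the study's list were higher in root. Adenosylhomocysteinase, which recycles the product of methylation, was at 6.82, 6.96 and 7.11 in shoot –Zn and 12.90, 13.11 and 13.21 in root –Zn (difference -6.11, standard error 0.48). Another probe set with the same cluster number in its name, but no annotated gene, averaged 8.43 in shoot –Zn and 8.22 in root –Zn. Its difference of 0.21 was not called. S-adenosylmethionine synthetase 1, which makes the precursor of nicotianamine, was at 6.05, 6.56 and 6.85 in shoot –Zn and 10.72, 10.68 and 10.74 in root –Zn. O-methyltransferase of the same list differed by 0.00 (adjusted p = 1.0). Of the 2 annotated genes of methyl transfer, PEAMT was higher in shoot by 1.77 and the S-adenosylmethionine synthetase sam2 higher in root (difference -2.46). The vacuolar proton pump vpp3 was at 3.08, 3.15 and 2.81 in shoot –Zn and 7.02, 7.18 and 7.68 in root –Zn, and the 4 V-type ATPase probe sets by -2.80 (subunit B), -3.39 (V1 domain), -3.57 (subunit E3) and -3.67 (V0 domain). The study's list of photosynthesis and carbohydrate genes gave 23 of 37 probe sets higher in root and 6 in shoot, the reverse of the photosystem list, and its root members include glycolytic enzymes such as phosphoglycerate kinase (difference -6.11). It also holds a probe set named chlorophyll a-b binding protein 6A, at 6.22, 6.31 and 6.48 in shoot –Zn and 10.23, 10.27 and 9.67 in root –Zn, opposite to the annotated antenna genes. This probe set was singled out after its values were seen. The study's list of phytohormone genes gave 5 of 18 higher in shoot and 8 in root, led by auxin induced in root cultures 12 (difference -7.49). Both lists stand beside 16.1% of all probe sets higher in shoot and 20.5% higher in root.

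**Figure D4:**
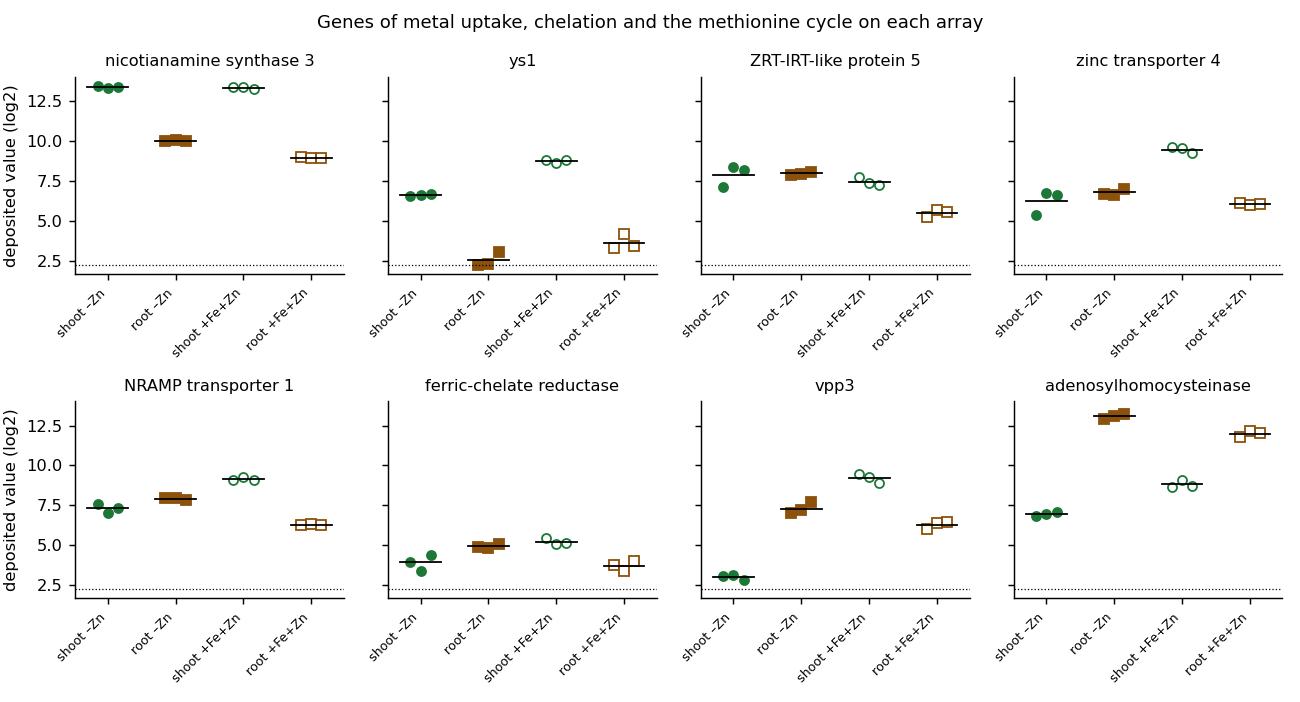
Deposited values (log2) of 8 genes on each of 3 arrays of shoot –Zn, root –Zn, shoot +Fe+Zn and root +Fe+Zn, with a bar at each mean and the floor of 2.24 dotted; filled symbols are –Zn arrays and open symbols +Fe+Zn arrays. Root –Zn lies above root +Fe+Zn for ZRT-IRT-like protein 5 by 2.47 and NRAMP transporter 1 by 1.65, while nicotianamine synthase 3 has its highest values in shoots.

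The tissue difference under –Zn was then set against that under +Fe+Zn in the same model. The zinc-free and the fully fed plants share no arrays. Under +Fe+Zn 3204 probe sets (18.2%) were higher in shoot and 3249 (18.4%) higher in root. Of the 2830 probe sets higher in shoot –Zn, 2025 were also higher in shoot under +Fe+Zn, 774 were not called and 31 were higher in root. Of the 3606 higher in root –Zn, 2439 were also higher in root under +Fe+Zn, 1042 were not called and 125 were higher in shoot. Across all 17621 probe sets, which are not independent replicates, the 2 tissue differences correlated at 0.82. The difference itself shifted toward shoot under –Zn for 1639 probe sets (9.30%) and toward root for 2445 (13.9%). After quantile normalization the shifts numbered 2117 toward shoot and 2059 toward root. Within a tissue, root –Zn was higher than root +Fe+Zn for 637 probe sets (3.62%) and lower for 634 (3.60%), and shoot –Zn was higher than shoot +Fe+Zn for 1364 (7.74%) and lower for 1995 (11.3%). Against the arrays labelled shoot –Fe–Zn, shoot –Zn was higher for 748 probe sets (4.24%) and lower for 680 (3.86%).

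The shoot side of these shifts carries a doubt about labels. The labels of some arrays outside the –Zn comparison are in doubt. Read against how the study's own table pairs its groups, the reference for shoot –Zn would be the arrays labelled shoot –Fe–Zn, and the arrays labelled shoot +Fe+Zn would stand for a root group without either metal. The mean of the leaf markers on the arrays labelled shoot +Fe+Zn lay at 10.6 on all 3 arrays, against 8.41 to 9.08 on those labelled shoot –Fe–Zn and 4.65 to 4.85 in root +Fe+Zn, so their tissue label held for these markers. The root reference is the same in both readings. The labels were kept here. The shifts of single genes and of lists below are also given with the arrays labelled shoot –Fe–Zn in the place of shoot +Fe+Zn. The carbonic anhydrase changes above are not. Control signals were set beside both references, and not all of them were closer to the same reference. The 3′ minus middle gap of cyclophilin averaged 10.81 in shoot –Zn, against 10.98 with the –Fe–Zn label and 8.90 with the +Fe+Zn label. That of Gapdh averaged 9.37, against 10.07 and 11.14 in the same order. The cre spike averaged 14.21, against 14.76 and 14.39. Between 23.7 and 25.3% of probe sets lay at the floor with the –Fe–Zn label, and 30.8 to 30.9% with the +Fe+Zn label. In shoot –Zn that share was 24.3 to 24.4%. The dap spike averaged 6.0 in shoot –Zn, against 6.15 with the –Fe–Zn label and 10.3 with the +Fe+Zn label, but it also averaged 9.19 in root –Zn, against 12.6 in root +Fe+Zn. The lys spike averaged 7.25 in shoot –Zn, against 7.61 with the –Fe–Zn label and 7.38 with the +Fe+Zn label, and the 3′ minus middle gap of ubiquitin 7.64, against 8.36 and 7.74 in the same order. With the arrays labelled shoot –Fe–Zn as shoot reference, 1122 probe sets (6.37%) shifted toward shoot and 1108 (6.29%) toward root. Of the 1639 shifts toward shoot 552 were called again and 99 were called the other way, and of the 2445 toward root 432 were called again and 94 were called the other way. Which reference is the right one was not settled.

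Some shifts came from the roots, or were called with either reference. HRGP, a hydroxyproline-rich wall glycoprotein, was at 2.24 on all 3 shoot –Zn arrays and at 2.26, 2.54 and 2.24 in root –Zn, against 2.24 in shoot +Fe+Zn and 6.75, 7.03 and 6.62 in root +Fe+Zn. Its tissue difference shifted by 4.46 (standard error 0.20) with either reference, and both shoot groups lay at the floor. The MADS gene zmm19 was at 2.60, 2.67 and 2.81 in root –Zn and 6.66, 6.66 and 6.71 in root +Fe+Zn, and AGAMOUS at 5.57, 4.93 and 4.66 in root –Zn and 2.29, 2.58 and 2.58 in root +Fe+Zn, shifts of 3.25 and -2.57 (5.65 and -2.75 with the other reference). The fermentation gene pdc1 was at 7.73, 8.01 and 8.0 in root –Zn and 5.53, 5.47 and 5.36 in root +Fe+Zn. The cystatin cpi2, an inhibitor of cysteine proteases, was at 5.75, 6.12 and 6.36 in shoot –Zn and 10.23, 10.15 and 10.01 in root –Zn, against 10.23, 10.08 and 10.09 in shoot +Fe+Zn and 7.62, 8.05 and 7.62 in root +Fe+Zn. Its shift of -6.42 was -3.25 with the other reference, and root –Zn alone exceeded root +Fe+Zn by 2.37 (adjusted p = 1.9e-05).

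Among the lists, shifts of the cellulose synthases and of the cytoskeleton were toward shoot only with either reference. Over all probe sets 9.30% shifted toward shoot and 13.9% toward root, and 6.37% and 6.29% with the other reference. Of 13 cellulose synthase probe sets, 8 shifted toward shoot and none toward root, and 7 and none did so with the other reference. CesA-4 was at 9.32, 9.52 and 9.48 in shoot –Zn and 8.90, 8.74 and 8.74 in root –Zn, against 7.33, 7.28 and 7.46 in shoot +Fe+Zn and 9.35, 9.39 and 9.39 in root +Fe+Zn, so root was not the higher tissue under –Zn (shift 2.67, and 2.55 with the other reference). Of 16 tubulin and actin probe sets, 7 shifted toward shoot and none toward root, and 5 and none with the other reference. For tub3 the shift was 3.03 (standard error 0.23), and 3.12 with the other reference, with shoot –Zn above shoot +Fe+Zn by 1.61 and root –Zn below root +Fe+Zn by 1.42.

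Other lists depended on the reference. Of the 37 probe sets on the study's transport list, 26 shifted toward root and 3 toward shoot, but 7 and 7 with the other reference. Of 12 photosystem probe sets 3 shifted toward root and 1 toward shoot, but none and 6 with the other reference. Over all probe sets 13.9% shifted toward root and 9.30% toward shoot, and 6.29% and 6.37% with the other reference. The small heat shock gene hsp18c was at 10.18, 9.93 and 9.71 in shoot –Zn, 2.93, 3.02 and 3.17 in root –Zn, 3.14, 3.01 and 3.22 in shoot +Fe+Zn and 3.06, 3.01 and 3.09 in root +Fe+Zn, a shift of 6.83 that was 0.45 (adjusted p = 0.425) with the other reference. The malic enzyme gene me3 shifted by -4.70, and by -0.09 with the other reference.

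**Figure D5:**
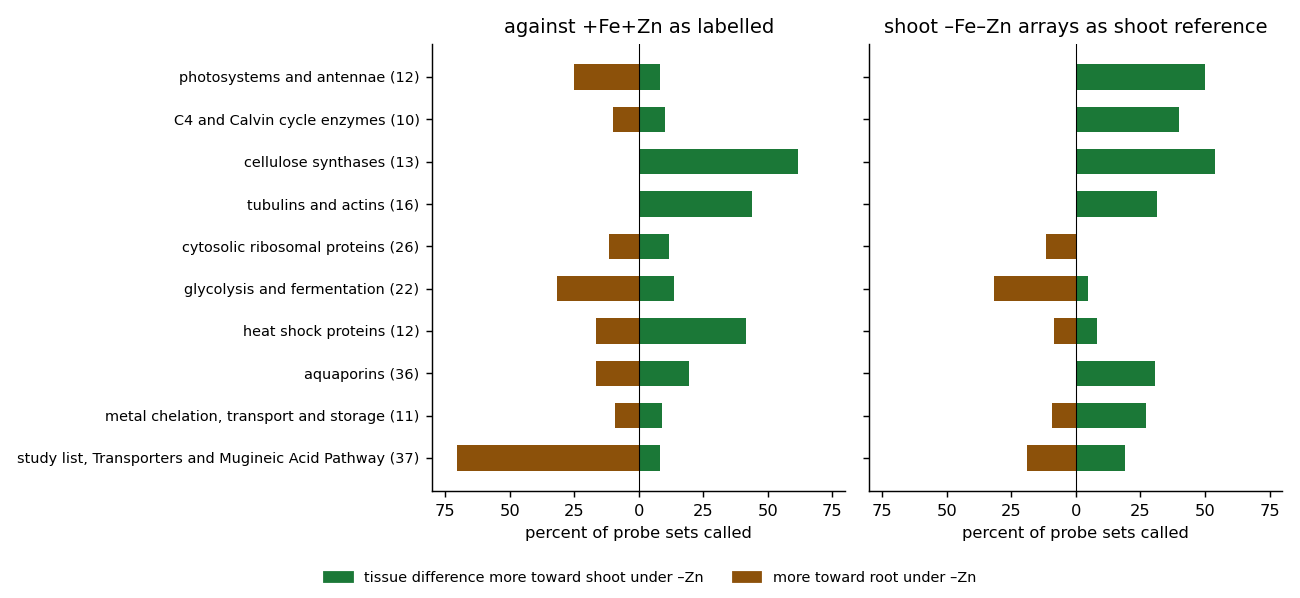
Percent of the probe sets of 10 gene lists (number in brackets) whose tissue difference under –Zn shifted toward shoot (bars to the right) or toward root (bars to the left) relative to plants given both metals, with shoot +Fe+Zn as labelled (left) and with the arrays labelled shoot –Fe–Zn in its place (right). The cellulose synthase bars point toward shoot in both panels (8 and 7 of 13 probe sets), whereas the bars of photosystems and of the study's transport list change between panels.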

How the data were processed

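For 24 Affymetrix maize arrays, the authors deposited a log2 value for every probe set on each array, from cRNA amplified at the 3′ end. By the study's methods the values were made with GCRMA, whereas RMA, affy and limma are named, versions left out, in the submitters' processing notes, and the background correction was not settled. No intensities were used, and the number of arrays limits the precision. Values were neither rescaled nor filtered. All 24 arrays entered 1 linear model of 8 group means (limma 3.58.1 in R 4.3.3, lmFit and eBayes), and p-values were adjusted by Benjamini-Hochberg over 17621 probe sets. Every adjusted p is from limma. A call needs an adjusted p under 0.05 and at least 2-fold. The tissue difference under –Zn against +Fe+Zn is a contrast of the same model.

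Genes come from the array's annotation (1108 genes). Of the 92 probe sets of the study's table, 27 are in it and carry its names, and the others were named as in the study. Lists were matched on symbols, and 53 matches to other genes were left out after values were seen. The members, lists and rules were chosen with earlier results of these data known. Named genes were the 15 with the largest called and non-overlapping differences in each direction, the 4 largest called members of each list, and, called between the tissues or not, the study's transport and mugineic acid genes and the 8 largest shifts against +Fe+Zn in each direction. Other genes were named where a statement turned on them, after their values were seen. Of the auxin list 1 of 2 probe sets was higher in shoot. Endosperm storage proteins gave 1 of 7 probe sets higher in shoot, and zinc enzymes 1 of 3 higher in root. Samples were grouped by GEO's labels. Because the labels of some arrays outside the –Zn comparison are in doubt, the shoot –Fe–Zn arrays were tried as shoot reference, an alternative added after seeing the data. Alternatives were no fold minimum, a filter on dim probe sets, quantile normalization, median centring, a trended robust prior, only the groups compared, the replicate block, 1 probe set per gene and each array left out. Replicate numbers did not pair the samples.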

Additional observations from a re-analysis of the deposited data

Results flagged for a closer look

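The tissue difference shifted toward shoot under –Zn relative to +Fe+Zn for 1639 probe sets and toward root for 2445, by an interaction contrast in limma. The annotated genes with the largest shifts toward shoot were hsp18c (6.83), LOC541918 (5.08), HRGP (4.46), lim1 (3.63), hsp18a (3.55), thi1-2 (3.46), zmCL2-2 (3.40) and LIP (3.40). Those with the largest shifts toward root were vpp3 (-7.18), cpi2 (-6.42), rcalm (-5.30), GOS2 (-5.08), TMT (-4.85), see2b (-4.81), me3 (-4.70) and CYTMDH (-4.64). These 16 were flagged because the effect of tissue differed between the 2 solutions.

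With the arrays labelled shoot –Fe–Zn in the place of shoot +Fe+Zn, HRGP, zmCL2-2, lim1 and LIP were called toward shoot again (4.46, 2.41, 2.35 and 1.23) and cpi2, rcalm, vpp3 and see2b toward root again (-3.25, -2.49, -2.27 and -1.47). Not called with it were hsp18a (0.47), hsp18c (0.45), thi1-2 (0.08), GOS2 (-0.29), TMT (-0.27), me3 (-0.09) and CYTMDH (0.00), and LOC541918 changed direction (-1.84). Outside the genes measured, 7 of the 113 control probe sets were higher in shoot –Zn than in shoot +Fe+Zn by at least 2-fold without overlap and 17 were lower, while 3 were higher in root –Zn than in root +Fe+Zn and 53 were lower.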

How the results depend on the processing

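Directions of the tissue calls were stable under the settings tried. Against 2830 probe sets higher in shoot –Zn and 3606 higher in root –Zn, leaving out 1 array gave 2800 to 2859 and 3527 to 3594, and no call changed direction. For the shifts against +Fe+Zn, leaving out 1 array gave 1528 to 1666 toward shoot and 2258 to 2503 toward root. Without a fold minimum 4531 probe sets were higher in shoot –Zn and 2770 shifted toward shoot, and with 1 probe set per annotated gene, over 1108 genes, 229 and 319 were higher in shoot and root and 126 and 230 shifted toward shoot and root. Under quantile normalization 50.7% of the shifts were toward shoot, against 40.1% as deposited. With the replicate block the tissue calls were 2827 and 3602 over 24 arrays and 2585 and 3478 over the groups compared. Same-numbered shoot and root arrays deviated together at 0.10, -0.03 and 0.11, so the numbers were not taken as pairs. With the arrays labelled shoot –Fe–Zn as shoot reference, 1108 probe sets shifted toward root, and 16 named genes had the opposite sign: crtRB1 (-0.73), zinc transporter 4 (1.14), metallothionein-like protein type 2 (1.94), PIP2-1 (1.21), nph1 (0.25), NNR1 (0.27), ZRT-IRT-like protein 5 (0.65), MNB1b (0.11), vacs1 (0.50), glu1 (-3.82), arpp2a-3 (-0.43), pcna2 (-0.50), GST25 (-0.22), NIP2-2 (0.83), LOC541918 (-1.84) and TIP1-1 (0.95). The cause was not tested. The promoter search planned was not run, as no promoter sequences were used here, and genes at the floor have differences that are understated.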
